A study of Mus musculus with 12 samples.

Results

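Axon guidance is carried out by secreted and membrane-bound cues that are read by receptors on the growth cone. Semaphorins signal through plexins and neuropilins, ephrins through Eph receptor tyrosine kinases, Slits through Robo receptors, and netrins through Dcc and Unc5 receptors. In the adult hippocampus many of these genes remain in use at synapses, in dendritic spines and in the vasculature. N6-methyladenosine (m6A) is a methyl mark on adenosines of mRNA that is set by a methyltransferase complex around Mettl3 and Mettl14, and it is usually densest near stop codons and in 3′-untranslated regions (3′ UTRs).

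The members were all genes whose symbol belongs to the semaphorins 3 to 7, plexins, neuropilins, Eph receptors, ephrins, Slits, Robo receptors, netrins, netrin-G, Unc5 receptors or Dcc. Of 71 such genes, 69 had an m6A peak in at least 1 genotype, out of 17777 gene names in the tables. They held 173 of 33622 peaks in the WT list and 181 of 34935 peaks in the Tyrobp-/- list. The rule used names and no measured value.

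Hippocampal RNA came from WT and Tyrobp-/- mice of 6 months, all males of C57BL/6 background, with WT littermates as controls. Tyrobp encodes an adaptor protein of microglial receptors, and the mutant allele lacks a short stretch of exon 2 removed with a TALEN in every cell. Each genotype had 3 samples, each sample pooled the hippocampi of 3 mice, and each gave an m6A immunoprecipitation (IP) library and an input library. The 12 libraries held 61189368 to 73554506 valid reads. GC content was 49.16 to 50.24% in the WT IP libraries and 48.46 to 49.33% in the Tyrobp-/- IP libraries, and the part of this shift in the values below was not tested. Of 17 marker genes of neurons, astrocytes, oligodendrocytes and microglia, 16 had a peak in each list and only Tyrobp had none.

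The deposited peak lists hold 1 entry per peak and genotype and none per replicate. Each peak therefore has 1 value per genotype, its fold enrichment of IP over input reads, with no replicate error and no read count behind it. Differences between genotypes are given as descriptions, without a test. In whole hippocampus, fewer cells of a type and less methylated RNA per cell cannot be told apart.

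Nearly all of the genes carried m6A peaks. A peak was present for 67 of 71 genes in WT mice and for 69 in Tyrobp-/- mice, while 56.8% of protein-coding RefSeq genes had a peak in WT and 58.2% in Tyrobp-/-. That background was not limited to genes expressed in the hippocampus, and no match for expression was made. At a false discovery rate (FDR) of peak calling below 1e-5, 62 genes kept a peak in WT and 69 in Tyrobp-/-. The 69 include Unc5a, whose peak is described below. The share of all genes at that FDR was not computed. Of the members' peaks 69.9% in WT and 74.6% in Tyrobp-/- passed it, against 64.4% and 63.3% of all peaks. The netrin Ntn5 and the plexin Plxnc1, a receptor of Sema7a, had no peak in either list. The ephrin Efna3 and the netrin receptor Unc5a had one only in the Tyrobp-/- list, and no member had one only in WT. Over all genes, 15781 had a peak in WT, 16146 in Tyrobp-/- and 17744 in at least 1 list. Genes found in 1 list only thus occurred on both sides.

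The Unc5a peak (chr13:55005985-55006314, 330 bases, fold enrichment 10.5) had only 34 bases inside the RefSeq span of Unc5a and lay wholly within Hk3, a hexokinase gene. The WT list held a peak of 150 bases within the same interval under the name Hk3, with a fold enrichment of 3.0. The Efna3 peak (chr3:89316324-89316413, fold enrichment 24.8, FDR 2.24e-06) lay wholly within the RefSeq span of Efna3 and of no other RefSeq gene, but was annotated to exon 2 of 3 of a transcript of another gene. No WT peak overlapped it. The Tyrobp-/- peaks of Ephb1 (exon 3), Ntn4, Ntn1 (3′ UTR) and Epha3 (3′ UTR) also met a WT peak filed under another name, namely Gm26846, Gm8580, Mir6406 and Gm22769. Only Gm22769 lies on the strand of the member, whereas Hk3 and the other three are assigned to the opposite strand, and those peaks were not matched. For Ntn1, the founding netrin, the WT peak under Mir6406 had a fold enrichment of 10.2 and the Tyrobp-/- peak 5.72. For Epha3 the highest fold enrichment was 2.63 in WT, in the 5′ UTR, and 15.2 in Tyrobp-/-, in the 3′ UTR, while the WT peak at that 3′ UTR was listed under Gm22769 at 8.50.

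**Figure D1:**
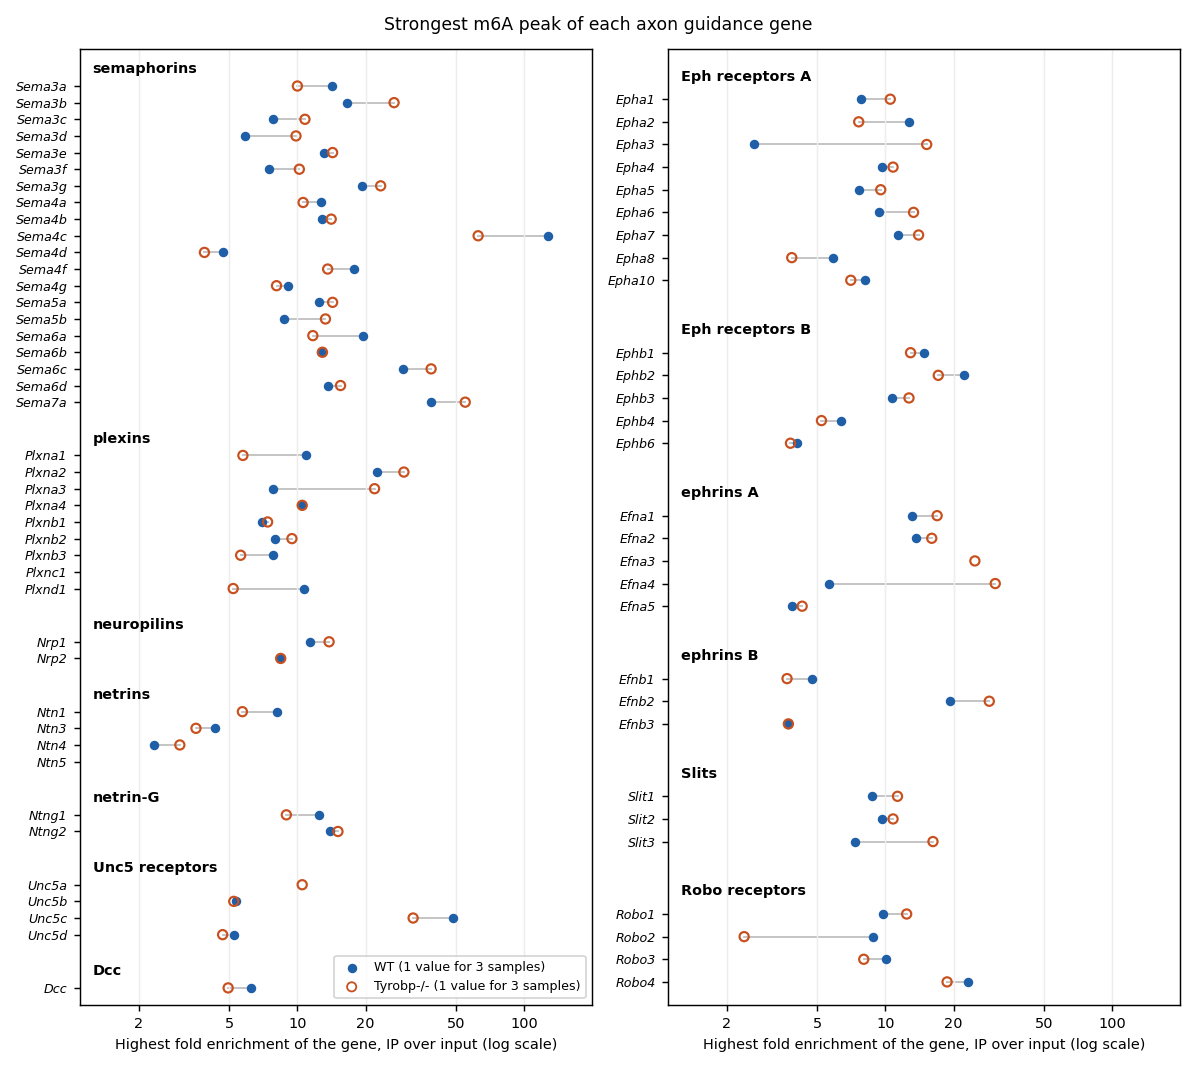
Highest fold enrichment (IP over input reads, log axis) among the peaks of each gene, with filled circles for WT and open circles for Tyrobp-/- mice, each a single value for the 3 samples of a genotype, and the 2 circles of a gene can stand for different peaks. Sema4c reaches 128 in WT and 62.7 in Tyrobp-/-, most genes lie between 4 and 20 in both, and Plxnc1 and Ntn5 have no point.

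Genes with several peaks were common. In WT mice 17 genes had 1 peak, 34 had 2 or 3 and 16 had 4 or more, and in Tyrobp-/- mice the numbers were 20, 31 and 18. The list averaged 2.58 peaks per gene in WT and 2.62 in Tyrobp-/-, against 2.13 and 2.16 over all genes with a peak. The genes were also long, with a median span of the assigned transcript of 40195 bases in WT against 15661 bases over all genes. Slit2, a secreted repellent for commissural and cortical axons, had the most peaks in WT with 9, and had 6 in Tyrobp-/-. Epha5, the receptor for ephrin-A5 in hippocampal axons, had 6 peaks in WT and 8 in Tyrobp-/-. Plxna2, a receptor for Sema6a in mossy fibres, had 5 and 7. With 5 peaks in WT followed Sema6a, Plxna4, Nrp2, Epha7, Ephb2, Efnb2 and Ntng2, which had 5, 5, 5, 4, 5, 4 and 4 in Tyrobp-/-. More peaks were listed in WT for 23 genes, in Tyrobp-/- for 24, and 22 genes had equal numbers.

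The peaks gathered at both ends of the transcripts. In WT mice 95 of 173 peaks (54.9%, 95% exact binomial interval 47.2 to 62.5%) were annotated to 3′ UTRs, and in Tyrobp-/- mice 102 of 181 (56.4%, 48.8 to 63.7%). Over all peaks the shares were 47.2% and 49.3%. The 5′ UTRs held 48 WT peaks (27.7%, 21.2 to 35.1%) and 45 Tyrobp-/- peaks (24.9%, 18.7 to 31.8%), against 18.9% and 17.3% over all peaks. Exons other than the first held fewer, with 13.3% in WT and 13.8% in Tyrobp-/- against 22.4% and 21.7%. These intervals cover counting error only, and peaks of 1 gene are not independent. When each gene was reduced to its peak of lowest p-value, 55 of 67 genes in WT and 60 of 69 in Tyrobp-/- had it in the 3′ UTR, or 82.1% and 87.0%, where all genes gave 57.2% and 60.0%.

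**Figure D2:**
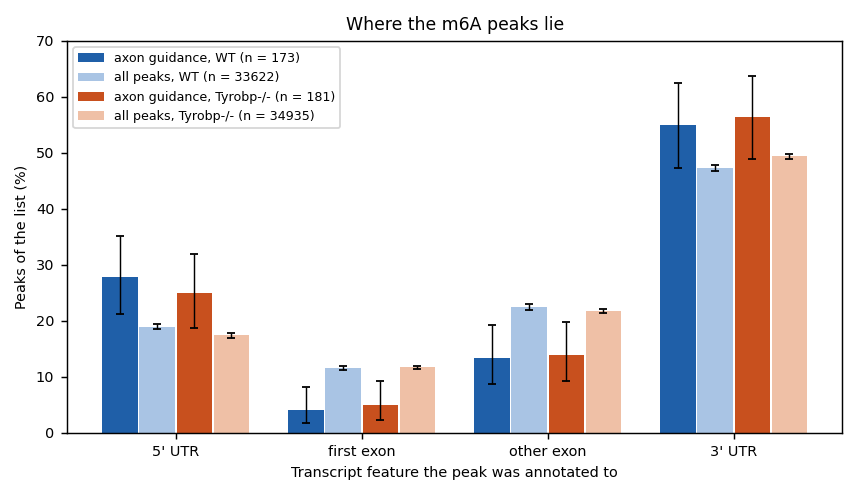
Share of peaks (%) annotated to each transcript feature, for axon guidance peaks (dark bars) and all peaks (light bars) of WT and Tyrobp-/- mice, with 95% exact binomial intervals. The 3′ UTR bars of the axon guidance genes stand at 54.9 and 56.4%, and their 5′ UTR bars at 27.7 and 24.9%, above the 18.9 and 17.3% of all peaks.

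Ligands had a higher share of their peaks in 3′ UTRs than receptors, with overlapping intervals. The ligands (secreted, transmembrane and GPI-anchored cues with netrin-G) had 53 of 86 peaks in 3′ UTRs in WT, or 61.6% (50.5 to 71.9%), and 60.7% (49.5 to 71.2%) in Tyrobp-/-. The receptors had 42 of 87, or 48.3% (37.4 to 59.2%), and 52.6% (42.2 to 62.8%). Among single families, the semaphorins had 34 of 46 WT peaks in 3′ UTRs, while netrin-G, the GPI-anchored branch of the netrin family, had 1 of 7 there and 4 in 5′ UTRs.

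The fold enrichment of the members was like that of other transcripts. Its median was 5.72 (quartiles 3.13 and 9.37) in WT and 5.75 (3.43 and 10.5) in Tyrobp-/-, against 5.54 and 5.72 over all peaks. The 3′ UTR peaks had medians of 6.19 and 6.22, the 5′ UTR peaks of 5.37 and 4.99. By family the WT medians ran from 2.93 for the Slits to 7.32 for the semaphorins. The ephrin-A peaks had a median of 5.25 in WT and 16 in Tyrobp-/-, but these were 6 and 7 peaks, and the ephrin-A values turn on Efna3 and Efna4, described with the comparison of the genotypes.

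**Figure D3:**
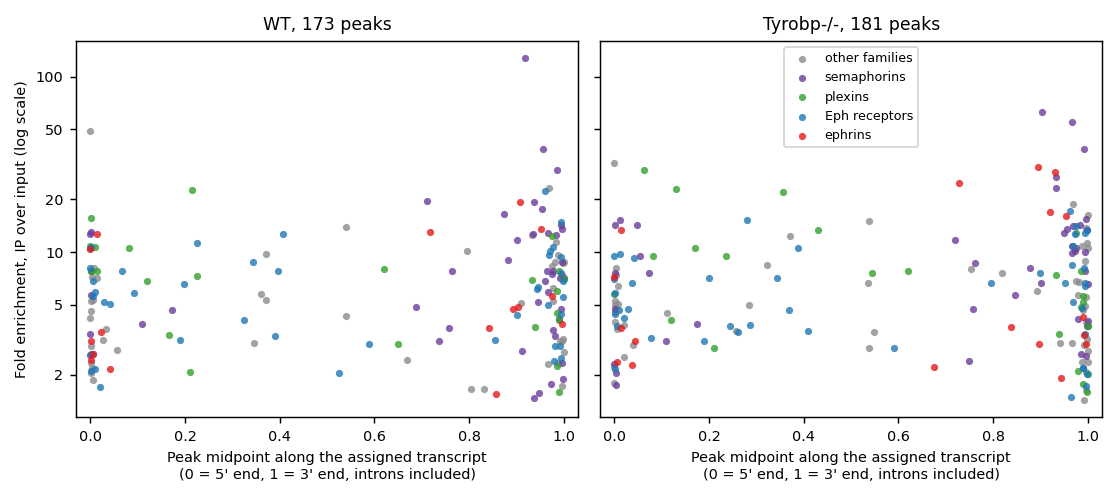
Fold enrichment of each axon guidance peak (log axis) against the position of its midpoint along the assigned transcript, introns included, for WT (173 peaks) and Tyrobp-/- (181 peaks). In both panels points crowd at 0 and 1, and the 3 highest semaphorin points, Sema4c, Sema7a and Sema6c, lie near the 3′ end.

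By family, all 20 semaphorins had a peak in both lists, 46 in WT and 42 in Tyrobp-/-. Their highest values outside Sema4c, Sema7a and Sema6c lay between 4.68 (Sema4d, an activator of Plxnb1) and 19.5 (Sema6a) in WT, and between 3.89 (Sema4d) and 26.7 (Sema3b) in Tyrobp-/-. Among the plexins, 8 genes held 23 and 24 peaks. Plxna1, which pairs with Nrp1, had the larger 5′ UTR value in WT with 10.9, against 5.75 in Tyrobp-/-. The neuropilins had 6 and 8 peaks, with Nrp2 at 8.35 and 6.87 at its main 3′ UTR peak. The semaphorin family thus had both the widest range and the highest values of the list.

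The 9 EphA receptors had 27 peaks in WT and 31 in Tyrobp-/-, and the 5 EphB receptors 15 and 14. Epha7, which limits dendritic spine growth, had 11.3 and 9.27 on its exon 2 peak of a 10-exon transcript. Epha8 had a matched exon pair of 3.34 and 3.86, and in WT a weak 5′ UTR peak of 5.86 (FDR 0.0257) without a partner. Ephb6, an Eph receptor without kinase activity, had 4.09 and 3.81 in its 3′ UTR. Low and high enrichment thus occurred within a single receptor family.

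The 3 ephrins B had 10 and 11 peaks, the 3 Slits 11 and 8, and the 4 Robo receptors 9 each. The 3 netrins with a peak had 6 and 7, and none of these passed 8.14. Ntng2, a synaptic adhesion molecule that binds Lrrc4, had 13.9 and 15.1 over its exon 2 peak, well above the netrins proper. Ntn4, a basement membrane netrin, had 2.34 and 2.38 in its 3′ UTR. By peaks under their own names, the netrins were the family with the lowest highest value in both lists, apart from the single peak of Dcc. In WT this leaves out the peak at Ntn1 filed under Mir6406, whose 10.2 is above the highest Slit value of 9.63.

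Transmembrane and GPI-anchored semaphorins held the 3 highest member values in Tyrobp-/- and the highest in WT. The 3′ UTR of Sema4c, a ligand of Plxnb2, held a peak of 1581 bases in WT (chr1:36548639-36550219) with a fold enrichment of 128, and of 1760 bases in Tyrobp-/- with 62.7. The next highest WT value among the members was 48.8, in the netrin receptor Unc5c. The 3′ UTR peak of Sema7a, a GPI-anchored semaphorin that acts through integrins and Plxnc1, had 38.7 in WT and 55.0 in Tyrobp-/- (chr9:57960896-57962865 in WT). That of Sema6c, which is read by A-type plexins, had 29.3 and 38.9 (chr3:95172885-95174024 in WT). All 3 were present in both genotypes over largely the same bases.

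Unc5c, a repulsive netrin receptor, ranked among the highest with a 5′ UTR peak of 48.8 in WT (chr3:141464617-141465333) and 32.4 in Tyrobp-/-. This peak lay outside the RefSeq span of Unc5c in both lists, upstream of it, and was assigned through an Ensembl transcript. The same held for the leading WT peak of Plxna2, with 22.5 in WT (chr1:194618218-194619357) and 22.9 in Tyrobp-/-, annotated as exon 1 of a transcript with 1 exon. Whether such peaks lie on the main mRNA of the named receptor was not tested.

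Among the 10 highest peaks at an FDR below 1e-5, both lists also held Efnb2 and Sema3g. Efnb2, a transmembrane ligand of EphB receptors, had 19.2 in WT and 28.7 in Tyrobp-/- in its 3′ UTR. Sema3g, a vascular semaphorin read by Nrp2, had 19.3 and 23.3. Those that reached the highest 10 in WT alone were Robo4, the Robo receptor of endothelial cells (23.1, and 18.7 in Tyrobp-/-), Ephb2, a receptor that organises glutamatergic synapses (22.3 and 17.1), and Sema6a (19.5 and 11.7). In Tyrobp-/- alone they were Efna4 (30.5), Sema3b (26.7, and 16.6 in WT) and Efna3 (24.8). The order of single genes in these lists has no error attached.

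Several Eph receptors carried a peak on the third exon. Among members with at least 15 exons, exon peaks of Eph receptors fell in exon 3 for 5 of 7 peaks in WT and 6 of 8 in Tyrobp-/-. Over all genes of at least 15 exons, exon 3 took 5.31% of exon peaks in WT and 4.71% in Tyrobp-/-. The genes were Epha1, Epha2, Epha5, Epha6, Epha8, Ephb1 and Ephb2, 7 of 14 Eph receptors, and in 5 of them an exon 3 peak passed an FDR of 1e-5 in at least 1 list. In Eph genes this long exon encodes most of the ligand-binding domain. Fold enrichments were moderate. Epha5 had 6.54 in WT and 7.10 in Tyrobp-/-, Epha6 had 3.15 and 3.10, and Ephb2 had 8.82 and 7.15. Those of Epha1 (7.81 at an FDR of 0.162 in WT) and Epha2 (3.49 at 0.0692 in Tyrobp-/-) were weak calls. Exon 3 of these genes was singled out after the values were seen, and the genes are paralogs and so not independent of each other.

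Plexins carried peaks on exons 2 and 3. Plxnb2 had a peak on exon 2 of 36 with a fold enrichment of 7.29 in WT and 9.46 in Tyrobp-/-. Plxnb3 had one on exon 2 of 33 with 6.84 and 4.11, and Plxnb1 one on exon 3 of 38 with 2.08 and 2.86. In Plxna3 exon 2 of 33 held a separate WT peak of 90 bases (2.98), which in Tyrobp-/- fell inside a longer 5′ UTR peak. Among plexin transcripts of at least 15 exons, 4 of 5 exon peaks in WT and 3 of 3 in Tyrobp-/- lay on exon 2 or 3, where 12.8% of exon peaks did over all genes of that size in either list. The WT peak of Plxna4 on exon 2 of 2 of a short transcript is not counted here. Exons 2 and 3 of the plexins were also singled out after the values were seen, and the plexins are paralogs. The peaks came from 4 of the 8 plexin genes with a peak, and those of Plxnb1, Plxnb2 and Plxnb3 count in both lists. The WT exon 3 peak of Plxnb1 had an FDR of 0.000372.

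At the 5′ end, sequence was examined where a peak covered the transcript start. RefSeq (GRCm38.p6) start windows were found for 61 members, 77 windows in all, and 25 windows of 22 genes had a peak of their own gene over some of the first 50 transcribed bases. The letters GGAC, the core of the usual m6A consensus, were searched for on the transcribed strand alone. They occurred in 7 of the 25 windows under a peak (28.0%), in 31.2% of all member windows and in 18.9% of 32851 windows of all genes. The 7 matches are shown as 30 transcribed bases, 5′ to 3′, with GGAC in capitals, since a member's peak covered at least some of each window. By their coordinates, the WT peaks of Ephb3 (chr16:21204755-21204994), Efnb2 (chr8:8661182-8661242) and Epha2 (chr4:141301240-141301300) covered the GGAC itself. For the other genes this was not tested.
Ephb3 (chr16:21204813-21204842, plus strand): cggctcctaccccGGACggcgagcgcacaa
Ntng2 (chr2:29248050-29248079, minus strand): agtgccgctctgggccccacccattcGGAC
Efnb2 (chr8:8661208-8661237, minus strand): ctctccgcggcggGGACagaggcaccggtc
Epha2 (chr4:141301232-141301261, plus strand): caacttccattaaGGACttggagcaggagg
Nrp1 (chr8:128359093-128359122, plus strand): ccgcagacaacccGGACctcctctgggcgc
Robo3 (chr9:37433146-37433175, minus strand): gaGGACagcccgcgcagaggcacggccggt
Sema4a (chr3:88461153-88461182, minus strand): ctcGGACgcctgggttaggggtctgtactg
Only Ephb3 and Ntng2 had a peak over the window in both lists, with highest fold enrichments of 5.66 and 5.27 in WT and 9.77 and 4.58 in Tyrobp-/-. Efnb2 (3.13, FDR 0.0363), Epha2 (10.7, FDR 0.0158) and Sema4a (12.7, FDR 0.00501) had it in WT alone. Nrp1 (1.79) and Robo3 (3.65, FDR 0.00794) had it in Tyrobp-/- alone. The windows of Plxna2, Plxna3, Sema3e and Sema4c, which had some of the highest 5′ peaks, held no GGAC. A match is a string of letters and not a methylated base, and the windows cover little of most peaks.

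Most member peaks were shared by the genotypes. In WT 136 of 173 peaks (78.6%, 71.7 to 84.5%) were overlapped by a Tyrobp-/- peak on the same strand, and 144 of 181 Tyrobp-/- peaks (79.6%, 72.9 to 85.2%) by a WT peak. The shares over all peaks were 78.6% and 76.4%. The peaks without a partner, 37 in each list, were small and weak, with a median of 121 exonic bases in both lists, against 538 and 481 for the partnered ones. Their median fold enrichment was 3.05 in WT and 3.38 in Tyrobp-/-, against 6.91 and 6.95. An FDR below 1e-5 was reached by 8 of the 37 unpartnered peaks in WT and 14 of 37 in Tyrobp-/-. Over all genes, 1611 unpartnered peaks in WT and 1876 in Tyrobp-/- reached it. In those full lists 26411 of 33622 WT peaks and 26688 of 34935 Tyrobp-/- peaks had a partner. The full Tyrobp-/- list thus held more unpartnered peaks, so 1611 and 1876 are counts and not shares. Their rise is no background for the rise among the members, which was not tested. Robo2, a Slit receptor, had peaks in both lists and none that overlapped, as did Epha3 when only peaks under its own name are counted. The WT peaks of Robo2 had fold enrichments of 8.79 (FDR 0.0933), 2.76 and 2.04, and its Tyrobp-/- peaks of 2.38 and 1.43.

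Pairing each peak with its partner of largest overlap gave 129 pairs in 66 genes. The median log2 ratio of fold enrichment, Tyrobp-/- over WT, was 0.06 (quartiles -0.28 and 0.41), and over all 24678 matched peaks it was 0.05. Tyrobp-/- had the higher value in 72 pairs and WT in 56. Over all 24678 matched peaks the numbers were 13199 and 11380, so the lean was in the same direction. A ratio of 2-fold or more towards Tyrobp-/- was found in 6 pairs, where 7.2% of all matched peaks had one, and towards WT in 5 pairs, where 6.38% had one. The members' shares were 4.65% and 3.88%, below those backgrounds. In the 107 pairs with an FDR below 1e-5 in both lists, 2 lay 2-fold or more each way (1.87%), beside 4.62% and 3.67% of all such pairs.

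**Figure D4:**
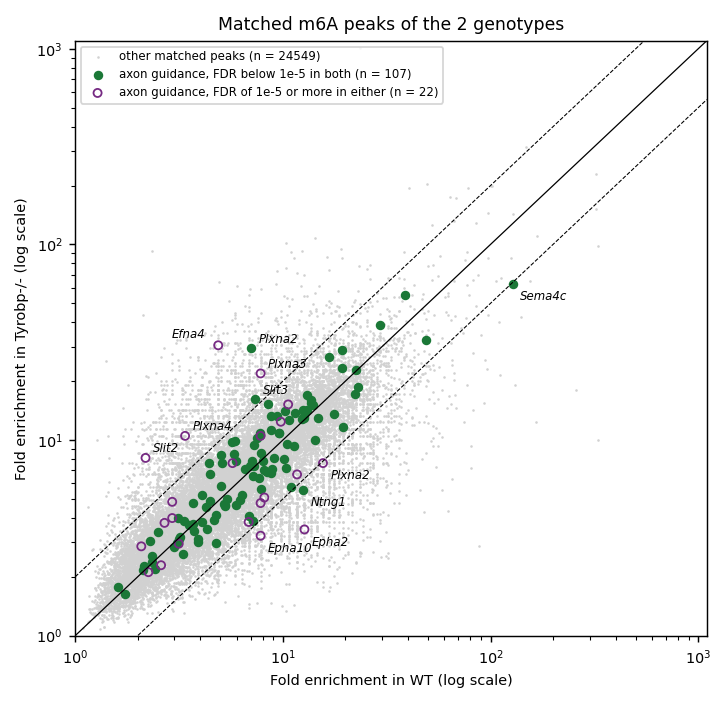
Fold enrichment in Tyrobp-/- against WT mice (both axes log) for 129 matched axon guidance pairs over all other matched peaks in grey, with the line of equality and dashed lines at 2-fold. Of the 11 labelled pairs outside the dashed lines, 7 have an FDR of 1e-5 or more in at least 1 list (open circles).

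Most of the large ratios came with peaks of unequal extent. In 8 of the 11 pairs past 2-fold the exonic length of the peak differed 2-fold or more between the lists. Among the 110 member pairs whose lengths were within 2-fold, 3 were past 2-fold (2.73%, against 10.3% of all such pairs). Of the 19 with unequal lengths 42.1% were past it, against 30.4% of all such pairs. The 3 pairs of like length were those of Sema4c, Slit3 and Slit2.

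The Sema4c pair went from 128 in WT to 62.7 in Tyrobp-/-, a ratio of 2.04. Slit3, a Slit family ligand, had a 3′ UTR peak of 658 bases at 7.36 in WT and of 479 bases at 16.2 in Tyrobp-/-. One Slit2 pair in the 5′ UTR stood at 2.18 (FDR 0.00589) and 8.10 (FDR 3.63e-06). Its main 3′ UTR peak, by contrast, was close to level at 9.63 and 10.8, and so was the single peak of Slit1 at 8.72 and 11.3.

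Pairs of unequal length were led by Efna4, a GPI-anchored ephrin. WT had 2 short peaks in its 3′ UTR (238 and 297 bases, 5.62 and 4.88), and Tyrobp-/- had 1 of 978 bases at 30.5 that spanned both. At the 5′ end of Plxna2 the WT list split the region into peaks of 1080 bases (15.6) and 691 bases (7.03), and the Tyrobp-/- list into peaks of 121 bases (7.62) and 1530 bases (29.5). One Plxna2 pair therefore counted as lower and the other as higher in Tyrobp-/-. Its main 3′ UTR peaks stood at 12.3 and 12.8. In Plxna3, which pairs with neuropilins to read class 3 semaphorins, a WT peak of 91 bases (7.81, FDR 0.162) met a Tyrobp-/- peak of 510 bases (21.9). In Plxna4 peaks of 181 bases (3.38) and 629 bases (10.5) met, and both lay within the RefSeq span of the antisense gene Plxna4os1. The pairs lower in Tyrobp-/- were Epha2 (12.7 and 3.49), Epha10 (7.81 and 3.24) and the 3′ UTR of Ntng1 (12.5 and 5.57), with the one of Plxna2 and Sema4c. Weak calls were among them, with FDRs in WT and Tyrobp-/- of 0.00501 and 0.0692 for Epha2 and 0.0186 and 0.0468 for Epha10. Both peaks of the Epha10 pair lay outside the RefSeq span of Epha10. The Tyrobp-/- peak of that Plxna2 pair had an FDR of 0.147.

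The best known ligand and receptor sets gave values on both sides of equality. Sema3a, the collapsing factor for sensory and hippocampal axons, had a 3′ UTR peak of 14.2 in WT and 10 in Tyrobp-/-. Its co-receptor Nrp1 had 11.4 and 13.8 in the 3′ UTR, and the signalling partner Plxna4 5.97 and 7.77 at its main 3′ UTR peak. The 5′ UTR pair of Plxna4 stood at 10.5 and 9.52, and its pair within Plxna4os1, given above, at 3.38 and 10.5, so the receptor's peaks lay on both sides of equality.

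Among the Slit receptors, Robo1 had a 5′ UTR peak of 5.11 in WT and 7.62 in Tyrobp-/-, and a faint 3′ UTR peak of 1.73 and 1.63. The attractive netrin receptor Dcc had a single 3′ UTR peak of 6.22 and 4.95. Unc5b stood at 2.29 and 3.05, the 3′ UTR of Unc5c at 8.79 and 6.78, and Unc5d at 5.26 and 4.68. No netrin receptor pair was past 2-fold.

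In the ephrin-B system, which signals in both directions between cells, Efnb3 was level at 3.71 and 3.73, and the 3′ UTR of Efnb1 was 4.75 and 2.99. The receptor Ephb1 had 14.8 and 12.9 in its 3′ UTR, and Ephb3 10.7 and 12.7. For the ephrin-A side, Efna5 had a 3′ UTR peak of 3.88 and 3.01, its receptor Epha4 9.63 and 10.8, and Epha5 7.65 and 6.40 at its most distal 3′ UTR peak. Another 3′ UTR peak of Epha5 stood at 5.02 and 8.41, so peaks of 1 transcript lay on opposite sides of equality.

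The authors' own table of the genotype comparison, of which only the listed regions were used here, held 17 member regions of 5640, in 15 genes. The criterion for its rows is not given in the sources used here, so a listed region need not be a called difference. Over all genes of the peak lists 26.1% had a region there. The regions belonged to Efna3, Efna5, Epha10, Ephb3, Ntn3, Plxna2, Plxna3, Plxna4, Sema3a, Sema3c, Sema3d, Sema3e, Sema4c, Unc5c and Unc5d, so 5 of the genes were semaphorins, 4 of them of the secreted class 3. They lay in 3′ UTRs in 8 cases and in 5′ UTRs in 6. A member peak of the same gene overlapped 10 of them in both lists, 2 in WT only and 5 in Tyrobp-/- only. The same split over all 5640 regions was not computed, so these counts have no background. Where a region had a peak in 1 list, some of these peaks were short. Examples are a Tyrobp-/- peak of 91 bases at 4.05 in the 3′ UTR of Sema3e, and a WT peak of 151 bases at 2.06 in the 5′ UTR of Ephb3. In Sema3c, whose region had a peak in both lists, the values were 7.80 in WT and 10.8 in Tyrobp-/-. In Sema3d the listed region held a WT peak of 5.21 only, while the neighbouring 3′ UTR peak stood at 5.89 and 9.86. In Sema3e the 5′ UTR peak, outside the listed region, stood at 13.1 and 14.3. The regions of Unc5d held 3.11 and 4.01, and those of Ntn3, the netrin of sensory ganglia, held 3 peaks per list of 2.95 to 4.31. The 2 regions of Sema4c in the table were the same 5′ UTR interval shifted by a few bases. The WT peak starts at 36558297, the last base of 1 of these regions. That region is therefore counted with a peak in both lists and the other in Tyrobp-/- only. The strong 3′ UTR pair of Sema4c was not among the listed regions.

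Other genes of the pathway also carried peaks in most cases. Of 36 other guidance cues and adhesion receptors 34 had a peak in WT and 33 in Tyrobp-/-, with 53.2% and 58.5% of their peaks in 3′ UTRs. Of 69 cytoplasmic effectors of guidance receptors 55 and 56 had a peak, with 55.4% and 59.9% in 3′ UTRs. Median fold enrichments were 4.82 and 6.67 for the former and 4.28 and 5.05 for the latter. Cfl1, Crmp1, Dpysl2 and Pak1, all of them cytoskeletal mediators of guidance signals, were among 11 effectors with no peak in either list.

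Weak calls took few distinct values. In the WT list 814 peaks shared the very same fold enrichment of 6.84 and FDR of 0.275, and 2 of them were members, on Ephb2 and Sema5a. In the Tyrobp-/- list 887 peaks shared 6.67 and 0.29, among them peaks of Epha4, Sema6d and Ephb1. At 7.81 and 0.162 stood 537 WT peaks, with Plxna3, Plxna4 and Epha1 among them. Reads of overlapping genes could not be told apart either, and 12 WT and 18 Tyrobp-/- member peaks also overlapped another RefSeq gene, such as Zyx at Epha1 or Gm29083 at Nrp2.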

How the data were processed

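Poly(A) RNA was fragmented, immunoprecipitated with an m6A antibody and sequenced as strand-marking paired-end libraries beside inputs. The authors trimmed reads with fastp, aligned them with HISAT2 to the mouse genome (annotation version 96), analysed IP beside input reads with exomePeak and annotated peaks with ChIPseeker. How replicates were combined and the tool versions are not given in the sources used here. The deposited peak lists give each peak a p-value, a log10 FDR (read as a score, since some underflow) and a fold enrichment, a ratio of IP over input reads. The deposited library table gives counts of valid reads and the GC percent. A further deposited table holds the authors' genotype comparison (log2 fold changes, p-values and FDRs); of it only region, width and annotation were used.

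Listed peaks had p up to 0.05, and many an FDR above that. Coordinates are those of the files and fell on the GRCm38.p6 RefSeq genes: 166 of 173 WT and 172 of 181 Tyrobp-/- member peaks overlapped the RefSeq gene of their name. Peaks were matched by 1 base or more of span on the strand of the assigned gene, each used once, largest overlap first. The 2-fold threshold applies to the ratio of the fold enrichments. Whether exomePeak used strand is not given, so sense and antisense reads were not separated. Matching was tested on simulated peaks that were well separated and of equal length in both lists. Split peaks and peaks of unequal length were not part of that test. Shares carry exact (Clopper-Pearson) 95% intervals. Members and gene lists were chosen with earlier results of these data known. Genes were named if among the 10 highest peaks of a list at an FDR below 1e-5, the 5 genes with most peaks, in 1 list only, past 2-fold, in a classic ligand and receptor set, or in the comparison table; others were picked after their values were seen. Python 3.11.15 with numpy 2.4.6, pandas 2.3.3 and scipy 1.17.1 was used. Read counts per peak and replicate were not analysed here.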

Additional observations from a re-analysis of the deposited data

How the results depend on the processing

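No paired analysis was possible because the peak lists hold 1 value per genotype, and for the same reason no replicate could be left out. Of 53 alternative values for 13 results, 32 stayed within the main interval or within 1.5 times the main count. With peaks of FDR below 1e-5 in both lists, the 3′ UTR share was 66.9% in WT and 67.4% in Tyrobp-/-, the share of WT peaks overlapped was 90.9%, and 2 pairs were past 2-fold each way. With fold enrichments of at least 4, 113 WT and 119 Tyrobp-/- peaks were left, and 4 pairs were past 2-fold higher and 3 lower in Tyrobp-/-. With 1 peak per gene, the 3′ UTR share was 82.1% and 87.0%, and the median fold enrichment 8.35 and 10.5. Under a reciprocal overlap of 50%, 54.3% of WT and 51.9% of Tyrobp-/- peaks were shared, and 3 pairs were higher and 1 lower. With only peaks of 1 partner each way, 3 were higher and 2 lower. A 1.5-fold threshold gave 14 higher and 15 lower, and a 3-fold threshold 4 higher and 1 lower. The cause was not tested where the construction of the setting does not show it. The median log2 ratio stayed between 0.02 and 0.12 in every setting run. Matching on either strand, added after the data were seen, gave 7 higher and 5 lower. Precision is limited by the lack of a value per replicate.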
